A study of Mus musculus with 47 samples.

Results

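The effect of losing Aire was compared between the mTEChi and the mTEClo fraction of adult mouse thymus, gene by gene, in RNA sequencing of sorted cells. For each gene the change from WT to AireKO in mTEClo was subtracted from the change in mTEChi, so that a negative difference on the log2 scale means a change that was more negative in mTEChi. Of 53402 genes listed, the 37 mitochondrially encoded ones were set aside and 19301 genes had enough counts to be tested. The difference was called for 2634 genes, 13.6% of those tested, at an adjusted p under 0.05 and a difference of at least 2-fold. It was lower in mTEChi for 2128 genes (11% of those tested) and higher in mTEChi for 506 genes (2.62%).

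Medullary thymic epithelial cells (mTECs) display proteins of other tissues to developing T cells, which removes or diverts T cells that recognise the body's own proteins. Aire is a nuclear regulator through which mature mTECs, those with high surface MHC class II, transcribe many of these tissue genes. The mTEClo fraction is mixed. It holds immature cells that give rise to mTEChi, cells that have left the Aire-expressing stage, and mimetic cells. Mimetic cells resemble tuft, ciliated, microfold, muscle, skin or endocrine cells. They are not confined to mTEClo, and the authors identified clusters of them in mTEChi as well.

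The study contains 47 libraries, and 23 adult libraries from C57BL/6 mice entered this comparison. They were 7 mTEChi and 8 mTEClo libraries from WT mice aged 4 or 5 weeks, of both sexes, and 4 mTEChi and 4 mTEClo libraries from AireKO males aged 5 or 6 weeks, so that WT libraries of females have no AireKO counterpart. The cells were sorted as CD45-negative, EpCAM-positive and Ly51-negative, and then split by surface MHC class II. AireKO is a germline deficiency, so that both fractions and all stages of each cell lacked Aire throughout life. The labels do not say which libraries came from separate animals, and p-values measure the spread between these libraries. Each library is a mixture of cells, in which fewer cells of a type and less RNA per cell cannot be told apart.

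Total counts ran from 1602125 to 3938588 per library. Mitochondrially encoded genes had 0 counts in every mTEChi AireKO library and in replicates 3 and 4 of mTEClo AireKO, whereas each of the other 17 libraries held between 6178 and 10339. This kind of library and the genotype cannot be told apart within mTEChi. Within mTEClo both kinds occurred in AireKO, but there the kind cannot be told apart from age and depth. Replicates 1 and 2, with mitochondrial counts, came from mice aged 5 weeks and held 1883769 and 1639231 counts in total. Replicates 3 and 4, without them, came from mice aged 6 weeks and held 3272356 and 3938588. Each kind was also used alone, which leaves fewer mTEClo AireKO libraries in each fit. The difference was of the same sign with an adjusted p under 0.05 in both of these fits for 1129 of the 2128 lower genes and 313 of the 506 higher genes. The summed level of 18 genes of mature mTECs, such as MHC class II genes and Cd80, was between 5022 and 7475 CPM (reads of a gene relative to the total of its library) in mTEChi and between 2181 and 4417 in mTEClo, with no overlap of the fractions in either genotype. The sum of 9 mTEClo genes, such as Ccl21a and Krt14, ran the other way and did not overlap either, with 1156 to 1366 CPM in mTEChi and 2254 to 3520 in mTEClo.

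Aire itself checked the labels. In WT mTEChi its level had a lowest, median and highest value of 752, 818 and 914 CPM, and in WT mTEClo of 19.5, 76.2 and 127 CPM. The mTEChi AireKO libraries held 38.6, 38.8, 21.2 and 16.9 CPM and the mTEClo AireKO libraries 7.55, 3.11, 0 and 0.243 CPM. Both AireKO groups lay below WT without overlap. The relative loss did not pass the test for a difference between fractions, with a log2 difference of 0.31 (SE 0.80, adjusted p = 0.82 in edgeR's quasi-likelihood test), and this value turned negative with other settings. The gene overlaps Dnmt3l, and the part of the locus that the remaining reads came from was not examined.

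More genes were called between AireKO and WT in mTEChi than in mTEClo. In mTEChi genotype and kind of library changed together, and in mTEClo the AireKO libraries were of both kinds. In mTEChi 4517 of the 19301 tested genes (23.4%) were called between AireKO and WT, with 3460 (17.9%) lower and 1057 (5.48%) higher in AireKO. In mTEClo 1602 genes (8.3%) were called, with 754 (3.91%) lower and 848 (4.39%) higher. Among the 2128 genes with a lower difference, the median change was -2.04 on the log2 scale in mTEChi and 0.31 in mTEClo, against -0.03 and 0.00 over all tested genes. The median difference of the 2128 genes was -2.31, or -2.27 with the 122 genes that had a group at 0 set to the floor of 3 counts over that group. The 506 genes with a higher difference had median changes of 0.97 in mTEChi and -0.37 in mTEClo. Since these genes were picked by the difference, their medians describe it and are not tests.

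Most differences came from genes that fell in mTEChi alone by the call rule. Of the 2128 genes with a lower difference, 1496 (70.3%) were lower in mTEChi AireKO and not called in mTEClo. A further 138 genes were called in opposite directions, lower in mTEChi and higher in mTEClo, 182 were called only as higher in mTEClo, 217 were called in neither fraction taken alone, 71 fell in both and 24 rose in both. The 506 genes with a higher difference split into 234 that rose in mTEChi and were not called in mTEClo (46.2%), 178 called in neither, 75 called only as lower in mTEClo, 11 that fell in both, 6 with opposite calls and 2 that rose in both. Of the 138 genes that were lower in mTEChi and higher in mTEClo, 115 (83.3%) were at an adjusted p under 0.05 in both fits by kind of library. Among the 1496 genes lower in mTEChi alone, 785 were. With the male libraries alone the difference was called as lower for 1749 and as higher for 418 genes.

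**Figure D1:**
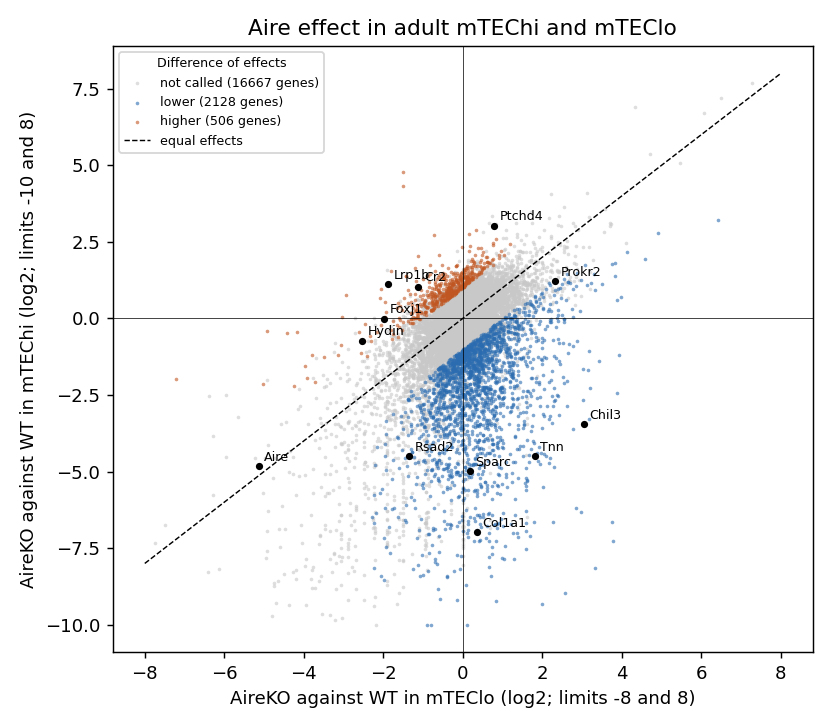
Change from WT to AireKO in mTEClo (horizontal axis, log2) against the same change in mTEChi (vertical axis, log2), with a point for each of the 19301 tested genes, coloured by the call of the difference. The dashed line marks equal effects in both fractions. The 2128 genes with a lower difference lie below it, mostly near 0 on the horizontal axis, and the 506 genes with a higher difference above it.

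The difference also states how far the gap between the fractions changed, so that the order of the fractions within each genotype is partly fixed by the choice of genes, and the following values describe it only. In WT, 1428 of these 2128 genes (67.1%) had a higher mean in mTEChi than in mTEClo, against 50.1% of all tested genes. In AireKO this was so for 458 genes (21.5%), against 49.3% of all tested genes. Their median level was 10.3 CPM in WT mTEChi and 2.29 CPM in AireKO mTEChi, and 4.87 and 6.53 CPM in WT and AireKO mTEClo. Of the 506 genes with a higher difference, 254 (50.2%) were higher in mTEChi than in mTEClo in WT and 470 (92.9%) in AireKO.

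Sparc, which encodes a collagen-binding glycoprotein of the extracellular matrix, showed the form shared by the largest group, a loss in mTEChi with the level in mTEClo kept. Its lowest, median and highest levels were 67.4, 78.6 and 91.9 CPM in WT mTEChi and 88.6, 108 and 127 CPM in WT mTEClo. In AireKO the mTEChi libraries held 2.17, 2.02, 3.7 and 1.65 CPM and the mTEClo libraries 98.7, 115, 136 and 140 CPM. The genotypes were apart in mTEChi and overlapped in mTEClo, and the log2 difference was -5.16 (SE 0.22, adjusted p = 1.5e-15). Igfbp3, a carrier of insulin-like growth factors, was at 22.9, 43.6 and 51 CPM in WT mTEChi and 32.5, 40.1 and 56.8 CPM in WT mTEClo. Its AireKO levels were 1.3, 2.43, 1.01 and 2.89 CPM in mTEChi and 86.8, 54.1, 57.8 and 69.3 CPM in mTEClo. The difference was -5.04 (SE 0.38, adjusted p = 1.8e-10), and the highest mTEChi AireKO library lay below every other library of the other groups.

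The other genes named in this class were Piezo2, a mechanosensitive ion channel, Nid1, a linker protein of basement membranes, Ryr1, the calcium release channel of skeletal muscle, and Slc2a3, a glucose transporter of neurons. Nid1 differed from Sparc in that WT mTEClo also had little of it. The medians were 115 CPM in WT mTEChi and 8.09 CPM in WT mTEClo. The mTEChi AireKO libraries held 6.94, 7.28, 4.38 and 4.12 CPM, so that Nid1 lost its mTEChi excess, with a difference of -5.00 (SE 0.45, adjusted p = 5.7e-09). Piezo2 had a difference of -5.06 (SE 0.48) and Slc2a3 of -4.87 (SE 0.53). In Ryr1 the mTEClo AireKO libraries with mitochondrial counts stood apart, at 133 and 116 CPM against 32 and 27.2 CPM in the others, while all 4 mTEChi AireKO libraries lay between 1.3 and 2.36 CPM, below the lowest WT value of 19.1 CPM. Its difference was -4.94 (SE 0.63, adjusted p = 1.3e-06).

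**Figure D2:**
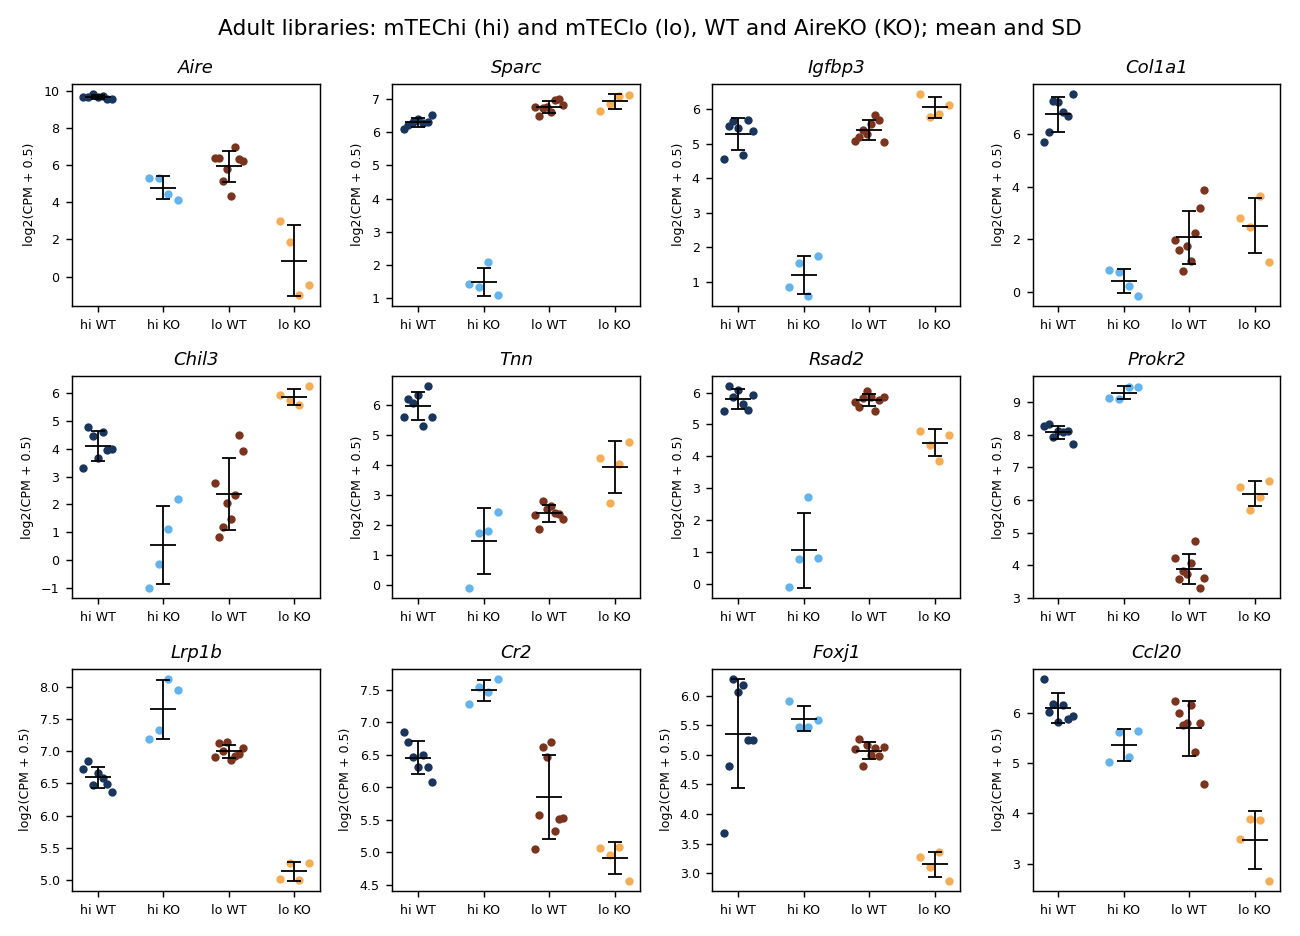
Levels of Aire and 11 genes in the 23 adult libraries, as log2(CPM + 0.5), with a point per library, and the mean and SD per group in black. Groups are mTEChi WT, mTEChi AireKO, mTEClo WT and mTEClo AireKO. Sparc, Igfbp3 and Col1a1 fall in mTEChi alone, Chil3 and Tnn move in opposite directions, Rsad2 falls and Prokr2 rises in both fractions, Lrp1b and Cr2 rise in mTEChi and fall in mTEClo, and Foxj1 and Ccl20 fall in mTEClo.

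Genes that fell in mTEChi and rose in mTEClo reversed their place between the fractions. Chil3, a secreted chitinase-like protein typical of macrophages and airway, was at 9.27, 15.3 and 26.9 CPM in WT mTEChi and at 1.27, 4.12 and 21.7 CPM in WT mTEClo. The mTEChi AireKO libraries held 0, 0.404, 1.68 and 4.12 CPM and the mTEClo AireKO libraries 59.3, 52.3, 47.3 and 74.7 CPM. Both changes were free of overlap, and the difference was -6.50 (SE 0.75, adjusted p = 3e-07). Tnn, a tenascin of the matrix, went from a WT median of 68 CPM in mTEChi to 0.434, 2.83, 3.03 and 4.95 CPM, and from a median of 4.76 CPM in mTEClo to 18.3, 6.22, 16.1 and 27 CPM. Its difference was -6.33 (SE 0.47, adjusted p = 1.7e-10), and in mTEClo 1 AireKO library lay within the WT range. Mylk4, of the myosin light chain kinase family, and Tmem132b, a membrane protein of neurons, had differences of -6.00 (SE 0.47) and -5.37 (SE 0.50).

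Of 45 tested collagen genes, 26 (57.8%) had a lower difference and 0 a higher one, against 13.6% of all tested genes in either direction, and 20 of the 26 were at an adjusted p under 0.05 in both fits by kind of library. Their median difference was -1.58, with median changes of -1.22 in mTEChi and 0.12 in mTEClo. Col6a3, a chain of the collagen VI microfibrils, was at 90.2, 94.9 and 137 CPM in WT mTEChi and at most 2.73 CPM in WT mTEClo. The mTEChi AireKO libraries held 0.434, 0.404, 0 and 0.825 CPM, all below the lowest WT library. Col2a1, the collagen of cartilage, had like medians in WT, 36.2 CPM in mTEChi and 35.9 CPM in mTEClo. In AireKO it was at 6.94, 3.23, 3.03 and 6.6 CPM in mTEChi and at 123, 133, 96.9 and 79.3 CPM in mTEClo, apart from WT in both fractions and in opposite directions, with a difference of -4.65 (SE 0.36, adjusted p = 3.8e-10). Col7a1, of the anchoring fibrils of skin, followed the same form, with a difference of -3.34 (SE 0.29).

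The ADAM and ADAMTS proteases and the serpins, many of which inhibit proteases, were among the families with large shares. Of 35 tested ADAM and ADAMTS proteases 13 (37.1%) had a lower difference and 0 a higher one, against 11% and 2.62% of all tested genes. Adamts12 was at a median of 23.6 CPM in WT mTEChi and at 2.6, 2.02, 3.03 and 4.12 CPM in mTEChi AireKO, while the mTEClo AireKO libraries, at 9.71, 11.2, 8.81 and 8.76 CPM, lay above the highest WT value of 8.56 CPM. Adamts1 had a difference of -2.54 (SE 0.35). Of 32 tested serpins, 11 had a lower and 1 a higher difference, against the same 11% and 2.62%. Serpine2, an inhibitor of thrombin, had a difference of -1.58 (SE 0.29), with mTEChi AireKO libraries at 15.2, 17.4, 9.09 and 8.25 CPM below the WT range of 20.3 to 34 CPM.

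Of 45 tested keratins 15 (33.3%) had a lower difference, against 11% of all tested genes. Of these 15 keratins, 5 passed in both fits by kind. Krt19, a keratin of simple epithelia, fell in mTEChi from a median of 53.2 CPM to 16.9, 12.5, 11.4 and 12.4 CPM and stayed at 130, 115, 123 and 117 CPM in mTEClo, within the WT range of 96.4 to 182 CPM. Krt15, a basal keratin, fell in mTEChi and rose in mTEClo, to 79.8, 51.6, 33.2 and 44.8 CPM against a WT range of 7 to 28.8 CPM. Among kallikreins, secreted serine proteases of skin and salivary gland, 12 of 24 tested had a lower difference, against the same 11%. Of 24 tested apolipoproteins 10 were called, 9 lower and 1 higher. Only 1 of the 12 kallikreins and 2 of the 10 apolipoproteins were at an adjusted p under 0.05 in both fits by kind of library. Of all 2128 genes with a lower difference, 1129 were. The reason for these differences was not tested. Chemokine ligands, which guide the migration of leukocytes, had 10 members with a lower and 4 with a higher difference among 28. The shares of all tested genes were 11% and 2.62%. At the other end stood the 355 zinc finger proteins with 4.79% called, against 13.6% of all tested genes. The 86 ribosomal proteins had 2.33% called and the 45 NADH dehydrogenase subunits 0.

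**Figure D3:**
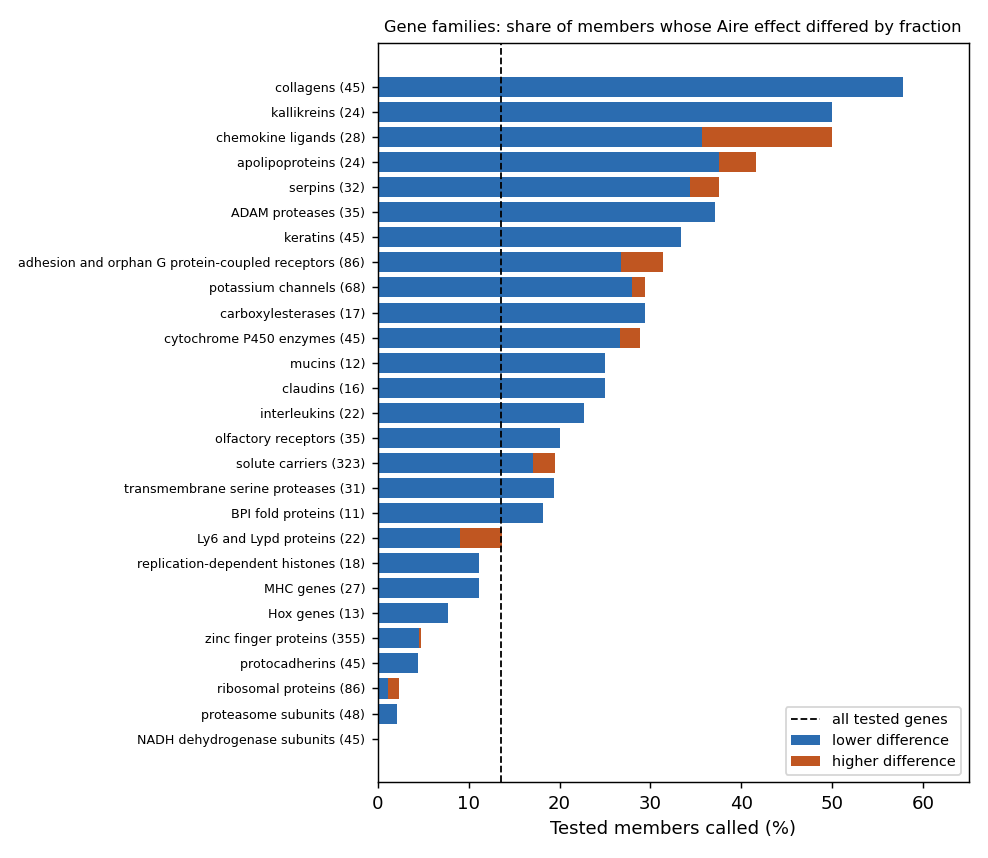
Share of tested members (%) with a lower or a higher difference of Aire effects, for gene families with at least 10 tested members (number in brackets), beside the 13.6% of all tested genes (dashed line). Collagens stand at 57.8% and NADH dehydrogenase subunits at 0.

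Interferons raise the transcription of antiviral genes through factors that bind the interferon-stimulated response element, whose core letters are GAAA, any 2 bases and GAAA again. Rsad2, an antiviral enzyme, led the class of genes that fell in both fractions and fell more in mTEChi. It was at 42, 58.1 and 72.9 CPM in WT mTEChi and 42.8, 55.6 and 66.3 CPM in WT mTEClo. In AireKO it was at 0.434, 1.21, 6.06 and 1.24 CPM in mTEChi and 27.5, 19.9, 14.1 and 25.1 CPM in mTEClo, below WT in both, with a difference of -3.16 (SE 0.40, adjusted p = 1.4e-06). The longest runs of neighbouring protein-coding genes with a lower difference held 6 genes each. One of them was the Ifit locus on chromosome 19, from 34473778 to 34613401 (GRCm38), with Ch25h, Lipa, Ifit2, Ifit3, Ifit1bl1 and Ifit3b, whose differences ran from -2.63 to -1.11 apart from Ifit1bl1, which had a group at 0. Lipa was just under 2-fold (-0.98) without mTEChi AireKO replicate 1, and Ifit3b did not pass without mTEChi AireKO replicate 2 (-1.51) or mTEClo AireKO replicate 4 (-1.46). Ifit1, which lies next to this run and was chosen after its values were seen, had a higher difference.

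Promoters of 2 genes with a lower and 2 with a higher difference are shown to set these letters beside the direction. The windows are RefSeq sequence of GRCm38.p6, 200 bases up to the gene start, written 5′ to 3′ on the gene's strand, and capitals mark that core or its reverse complement. They stand at chr19:34583329-34583528 (plus strand) for Ifit3, chr19:34640689-34640888 (plus strand) for Ifit1, chr12:26456453-26456652 (minus strand) for Rsad2 and chr1:173913047-173913246 (minus strand) for Ifi211.
Ifit3: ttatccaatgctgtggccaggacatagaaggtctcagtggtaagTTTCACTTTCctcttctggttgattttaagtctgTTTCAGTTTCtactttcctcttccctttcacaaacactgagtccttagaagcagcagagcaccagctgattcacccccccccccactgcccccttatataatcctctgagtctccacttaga
Ifit1: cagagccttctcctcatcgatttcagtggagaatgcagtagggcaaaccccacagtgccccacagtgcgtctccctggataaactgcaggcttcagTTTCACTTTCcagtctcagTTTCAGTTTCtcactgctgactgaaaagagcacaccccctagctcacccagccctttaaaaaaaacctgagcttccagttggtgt
Rsad2: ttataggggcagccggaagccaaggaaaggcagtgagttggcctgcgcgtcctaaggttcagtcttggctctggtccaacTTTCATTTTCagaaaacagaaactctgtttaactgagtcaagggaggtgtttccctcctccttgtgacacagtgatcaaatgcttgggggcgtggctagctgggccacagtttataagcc
Ifi211: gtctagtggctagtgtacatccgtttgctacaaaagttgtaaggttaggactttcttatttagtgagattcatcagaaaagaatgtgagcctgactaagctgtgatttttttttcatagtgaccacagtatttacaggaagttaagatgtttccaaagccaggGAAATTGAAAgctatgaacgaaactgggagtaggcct
Searched on both strands, the letters matched in 746 of 32851 RefSeq windows of this length (2.27%). Ifit3 and Ifit1 held 2 matches each, and Rsad2 and Ifi211 held 1 each, although Ifit3 and Rsad2 had a lower and Ifit1 and Ifi211 a higher difference. Ifit3b and both windows of Ifit1bl1 also held matches, and the windows of Ifit2, Ch25h and Lipa held none. Mndal and Ifi203, which also had a higher difference, held 1 match in each of 2 windows and 1 in 1 of 2. Windows of further genes, of either direction, were not examined one by one, and Ifi204 had no RefSeq window. A match describes the letters only.

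Ifit3 was at a median of 11.4 CPM in WT mTEChi and at 0.434, 1.62, 1.35 and 1.65 CPM in AireKO, and at 75 CPM in WT mTEClo against 30.2, 28.6, 38.5 and 52.3 CPM in AireKO. AireKO was below WT in both fractions, with a difference of -2.29 (SE 0.41, adjusted p = 0.00013). Ifit2 fell in both fractions as well, with a difference of -2.13 (SE 0.39). Ifit1bl1 was at 0 counts in all 4 mTEChi AireKO libraries and at 13.5 to 17.5 CPM in WT mTEChi, which makes it at least 51.5-fold lower (floor of 3 counts over the group). Ifit3 and Ifit3b are near-identical copies whose reads may be split between them.

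Ifit1 went the other way. The WT libraries ran from 110 to 143 CPM in mTEChi and from 144 to 179 CPM in mTEClo. The AireKO libraries were at 108, 112, 174 and 175 CPM in mTEChi and at 70.1, 66, 91.3 and 106 CPM in mTEClo. AireKO overlapped WT in mTEChi and lay below it in mTEClo, with a difference of 1.14 (SE 0.18, adjusted p = 2.5e-05). Without mTEChi AireKO replicate 3 or 4 or mTEClo AireKO replicate 2 it was just under 2-fold, at 0.97 to 0.99. A higher difference was also measured for 4 neighbours on chromosome 1, Ifi204, Mndal, Ifi211 and Ifi203, interferon-induced sensors of DNA and their relatives, which were also chosen after their values were seen. Ifi204 went in mTEClo from 55.4 to 76.8 CPM in WT to 8.63, 6.84, 18.5 and 14.6 CPM in AireKO, a fall by 2.32 on the log2 scale, and the change in mTEChi was -0.59. The differences of the 4 genes ran from 1.14 to 1.74. Ifi204 had 1.01 and did not pass without mTEChi AireKO replicate 3 (adjusted p = 0.11), and Ifi203 had 0.95 without that library and 0.94 without mTEClo AireKO replicate 2. Mndal overlaps Ifi211 and Ifi203, so that their counts are uncertain.

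The second run of 6 genes lay on chromosome 2, from 4919019 to 5714515, and held Phyh, Ucma, Mcm10, Optn, Ccdc3 and Camk1d, of which 5 passed in both fits by kind. Ucma, a secreted protein of cartilage, had the clearest change of these. It went from a range of 19.4 to 31.1 CPM to 7.81, 14.1, 15.5 and 12 CPM in mTEChi, and from 1.91 to 5.58 CPM to 29.1, 28, 38.8 and 52.3 CPM in mTEClo. The groups were apart in both fractions, in opposite directions, and the difference was -4.26 (SE 0.29, adjusted p = 4.4e-11). The call of Mcm10, a replication factor, was lost when any of 15 single libraries was left out, with values from -1.39 to -1.05, and Phyh had -0.93 without mTEClo AireKO replicate 4. The third run held 6 kallikreins on chromosome 7, from 44112673 to 44229618, near-identical copies of which 0 passed in both fits by kind.

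Of the genes called as higher in mTEClo and not called in mTEChi, Il1rl1, the receptor of interleukin 33, was at 1, 1.74 and 5.16 CPM in WT mTEClo and at 9.17, 3.73, 12.3 and 15.6 CPM in AireKO. In mTEChi it went from 34.9, 41.2 and 56.7 CPM to 24.7, 31.1, 25.3 and 23.5 CPM. All mTEChi AireKO libraries lay below WT and 3 of the 4 mTEClo AireKO libraries above it, with a difference of -3.07 (SE 0.37, adjusted p = 5.7e-07). Nppc, a natriuretic peptide, Serpinf1, a secreted serpin, and Adam33, a membrane protease, had differences of -3.34, -3.21 and -2.46. Among genes called in neither fraction taken alone, Ier3, Slc43a1, Crybb3 and Tlr5 had differences between -1.83 and -1.74. Slc43a1, an amino acid transporter, was above WT in all mTEClo AireKO libraries, at 74.2 to 86.8 CPM against 26.7 to 53.6 CPM.

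Prokr2, a receptor of the prokineticins, rose in both fractions and rose more in mTEClo. It was at 209, 273 and 317 CPM in WT mTEChi and 561, 541, 701 and 701 CPM in AireKO. In mTEClo it went from 9.34, 13.3 and 26.1 CPM to 84.7, 51.6, 67.2 and 94.6 CPM. AireKO was above WT in every library of both fractions, and the relative rise was larger in mTEClo, with a difference of -1.12 (SE 0.23, adjusted p = 0.00073). The genes Iqcn and Pld4 followed with differences of -1.12 and -1.01. Prokr2, Iqcn and Pld4 lie close to 2-fold. Pld4, an endolysosomal nuclease, had -0.99 to -0.93 without any of 8 single libraries, Prokr2 had -0.97 without mTEClo AireKO replicate 4 and Iqcn had -0.99 without mTEClo WT replicate 4. In the class that fell in both fractions, Rimbp2 of the synapse, the procollagen protease Adamts3 and the axonemal dynein Dnah7b stood beside Rsad2, with differences of -2.39, -2.38 and -2.25.

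Genes with a higher difference had smaller sizes, with 52 of 506 at 4-fold or more against 1228 of 2128 in the other direction. Lrp1b, a large receptor of the LDL receptor family, moved in opposite directions. Its WT levels were 81.6, 95.5 and 115 CPM in mTEChi and 116, 126 and 140 CPM in mTEClo. In AireKO it was at 146, 160, 279 and 248 CPM in mTEChi and at 31.8, 38, 31.4 and 37.7 CPM in mTEClo. Neither fraction overlapped WT, and the difference was 2.99 (SE 0.19, adjusted p = 1e-11). Cr2, the complement receptor of B cells, was at 67.3, 88.2 and 114 CPM in WT mTEChi and 154, 185, 177 and 203 CPM in AireKO. In mTEClo Cr2 went from 32.5, 46.4 and 103 CPM to 32.9, 30.5, 33.2 and 23.1 CPM, where the genotypes overlapped in range. The WT mTEClo libraries were uneven, with 386, 334 and 408 counts in replicates 3, 4 and 5. Replicates 6, 7 and 8 held 131, 135 and 153 counts. The difference was 2.15 (SE 0.33, adjusted p = 2.1e-05).

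The largest class with a higher difference rose in mTEChi and was not called in mTEClo. Ptchd4, a membrane protein related to the hedgehog receptor, rose from 12, 18.1 and 18.6 CPM to 106, 129, 188 and 149 CPM in mTEChi, while mTEClo AireKO was at 8.09, 5.6, 8.81 and 9.97 CPM against a WT range of 3.58 to 8.34 CPM. Its difference was 2.24 (SE 0.28, adjusted p = 8.7e-07). Tacr1, the receptor of substance P, rose from a median of 17.3 CPM to 64.6, 53.8, 46.1 and 42.1 CPM in mTEChi and overlapped in mTEClo. Plcd3, a phospholipase, rose unevenly, to 91.5 and 78.8 CPM in mTEChi AireKO replicates 1 and 2 and to 14.1 and 15.3 CPM in replicates 3 and 4, all above the highest WT value of 10.6 CPM. Trim47, Plekha4 and the scavenger receptor Colec12 had differences of 2.04, 1.97 and 1.96. Trim47 overlaps Trim65 and Plekha4 overlaps another gene, so that their counts are uncertain.

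Cxcl16, a chemokine of the membrane and of the secreted kind, had the smallest p of the chemokines. It was at 72.8, 78.8 and 84.7 CPM in WT mTEChi and at 182, 191, 151 and 177 CPM in AireKO. In mTEClo it went from 95.9, 106 and 123 CPM to 83.6, 89.6, 93.1 and 90.7 CPM, apart from WT as well, and the difference was 1.38 (SE 0.11, adjusted p = 8.8e-10). Ltbp2, which binds latent TGF-beta in the matrix, moved in the same way, at 396, 358, 310 and 302 CPM in mTEChi AireKO against at most 248 CPM in WT and at 213, 199, 211 and 150 CPM in mTEClo AireKO against at least 334 CPM in WT. Neither change reached 2-fold alone, and the difference was 1.53 (SE 0.14, adjusted p = 8.9e-09). Elk3, Cemip and Scn2b of the same class had differences of 1.52, 1.61 and 1.66. Cxcl16, Ltbp2 and Elk3 each overlap another tested gene.

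Ciliated mimetic genes went both ways. Of 10 tested, Foxj1, Dnah9 and Hydin had a higher and Ccdc39, Dnah5 and Rsph1 a lower difference, where 2.62% of all tested genes were higher and 11% lower. Taken by fraction, 7 fell in mTEChi and 7 in mTEClo, against 17.9% and 3.91% of all tested genes, and 0 rose in either. Foxj1, the factor that starts the programme of motile cilia, was at 27.7, 33.8 and 38.2 CPM in WT mTEClo and at 9.17, 8.09, 9.69 and 6.81 CPM in AireKO. In mTEChi it was at 12.4, 37.5 and 77.5 CPM in WT and at 59.9, 43.7, 44.1 and 47.4 CPM in AireKO, within the WT range. The genotypes were apart in mTEClo alone, with a difference of 1.98 (SE 0.41, adjusted p = 0.00066). Hydin, of the central pair of the axoneme, was below WT in both fractions, and went from a median of 29.3 CPM to 1.62, 3.11, 7.63 and 5.84 CPM in mTEClo and from 56.3 CPM to 35.6, 29.1, 43.8 and 39.2 CPM in mTEChi. Dnah9 was just under 2-fold without mTEChi AireKO replicate 3 (0.99) or 4 (0.97) or mTEClo AireKO replicate 4 (0.99).

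Further genes of the axoneme were named by their class alone. Spag6l, Vwa3a and Drc7 were called only as lower in mTEClo, with differences of 2.27, 2.17 and 2.14, and Dnah6, a dynein heavy chain, fell in both fractions and more in mTEClo, with 2.05. Dnah5, also a dynein heavy chain, went the other way. In mTEChi it fell from a range of 91.7 to 124 CPM to 24.7, 29.9, 12.1 and 16.1 CPM. Its mTEClo libraries ran from 129 to 216 CPM in WT and were at 82.5, 48.5, 102 and 117 CPM in AireKO, with a difference of -1.49 (SE 0.28, adjusted p = 0.00018). Ccdc39, which overlaps Ttc14, and Rsph1 were at an adjusted p of 0.36 and 0.28 when only the mTEClo AireKO libraries with mitochondrial counts were used.

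Microfold mimetic genes were the list with most higher differences. Sox8, Ccl9, Ccl20 and Tnfaip2 had a higher difference among 8 tested, and Gp2, a receptor for bacteria on microfold cells, a lower one. Of all tested genes 2.62% were higher and 11% lower. The list's median difference was 1.10, against -0.03 over all tested genes. By fraction, 6 of 8 genes fell in mTEClo and 2 in mTEChi, against 3.91% and 17.9% of all tested genes. Ccl20, a chemokine for CCR6-bearing cells, went in mTEClo from 23.6, 55 and 74.8 CPM to 10.8, 14.3, 14.1 and 5.84 CPM and in mTEChi from 55.9, 63.9 and 101 CPM to 32.1, 48.5, 34.3 and 49.1 CPM. Both fractions were below WT without overlap, and the difference was 1.57 (SE 0.36, adjusted p = 0.0018). Sox8, a transcription factor of these cells, was at 16.1 to 28.7 CPM in WT mTEClo and 8.63, 6.84, 10.3 and 12.4 CPM in AireKO, with a difference of 1.65 (SE 0.28). Gp2 had a difference of -1.24 (SE 0.36), and neither Gp2 nor Ccl9 passed with the mTEClo AireKO libraries that held mitochondrial counts alone. Tnfaip2 had 0.98 without mTEClo AireKO replicate 4.

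Muscle mimetic genes had 7 lower and 1 higher difference among 10 tested, where 11% of all tested genes were lower and 2.62% higher. By fraction, 5 fell and 1 rose in mTEChi, and 4 rose and 0 fell in mTEClo. Over all tested genes, 17.9% fell and 5.48% rose in mTEChi, and 4.39% rose and 3.91% fell in mTEClo. Acta1, the actin of skeletal muscle, was at 1.24, 5.13 and 8.91 CPM in WT mTEChi and 1.74, 0.809, 0.673 and 0.412 CPM in AireKO. In mTEClo it rose from 7.36, 18.5 and 25 CPM to 105, 39.2, 27.6 and 67.1 CPM, above WT in every library, and the difference was -4.26 (SE 0.72, adjusted p = 6e-05). Myog, the muscle factor myogenin, was at 100, 79, 31.4 and 30.2 CPM in mTEClo AireKO against 20 to 42.5 CPM in WT, so that the libraries with mitochondrial counts were the highest, as for Ryr1. The higher difference was that of Des, the intermediate filament of muscle, which rose in mTEChi from 22.4 to 37.3 CPM to 116, 82.5, 65.3 and 74.2 CPM. Actc1, Myl1, Ckm and Chrna1 had lower differences.

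Neuroendocrine mimetic genes had 6 lower and 0 higher differences among 14 tested, against the same 11% and 2.62%, and their median difference was -1.42, against -0.03 over all tested genes. In mTEChi 9 of the 14 fell, and in mTEClo 0 fell and 1 rose, against 17.9%, 3.91% and 4.39% of all tested genes. Sst, which encodes somatostatin, was at 18.8, 31.4 and 35.6 CPM in WT mTEChi and at 0 counts in all 4 AireKO libraries, at least 97.7-fold lower. In mTEClo it spread from 0 to 35.8 CPM in WT and was at 55, 0.622, 109 and 53.8 CPM in AireKO, where 1 library lay inside the WT range. Scg2, a granin of secretory vesicles, was likewise at 0 counts in the 4 mTEChi AireKO libraries and at least 61.6-fold lower than in WT, and at 11.3, 16.2, 50.5 and 74.7 CPM in mTEClo AireKO against 13.4 to 66.8 CPM in WT. The peptide genes Cck and Gal and the genes Chgb and Pcsk2, a granin and a prohormone convertase, were also lower. Chgb, Pcsk2 and Gal did not pass when only the mTEClo AireKO libraries with mitochondrial counts were used. Gal was also lost without mTEClo AireKO replicate 4 (adjusted p = 0.18) and Pcsk2 without mTEClo AireKO replicate 3, where its difference was -1.81. Chgb was lost without mTEChi AireKO replicate 1 (-2.44) or 3 (-2.72) or mTEClo AireKO replicate 4 (-2.03).

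Tuft mimetic genes had 2 lower differences among 12, where 11% of all tested genes were lower. Dclk1, a kinase that marks tuft cells, fell in mTEChi from 64.5, 81.8 and 93.5 CPM to 28.6, 18.6, 30.3 and 19.4 CPM, and was at 426, 310, 501 and 545 CPM in mTEClo AireKO against 562, 623 and 759 CPM in WT. AireKO was below WT in both fractions, and the difference was -1.22 (SE 0.19, adjusted p = 2.7e-05). Chat, the enzyme that makes acetylcholine, fell in mTEChi to 3.9, 4.45, 4.38 and 2.06 CPM from 8.96 to 13.8 CPM and overlapped WT in mTEClo. The ionocyte genes Foxi1, a transcription factor, and Atp6v1b1, a proton pump subunit, had lower differences among 6 tested, Spdef was the only goblet gene called among 10, and Ivl and Casp14 were the skin genes called among 13. Of the 10 goblet genes, 9 fell in mTEChi and 5 in mTEClo, against 17.9% and 3.91% of all tested genes. Their median difference was -1.47, and some uncalled ones had large errors, such as Muc2 with -6.13 (SE 3.51). The call of Spdef was lost without any of 7 single libraries, with -1.65 to -1.39, and that of Ivl without any of 6, with -1.43 to -0.36. The enterocyte and hepatocyte list had 0 of 13 called in the difference, while 7 of its genes fell in mTEChi and 8 in mTEClo.

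**Figure D4:**
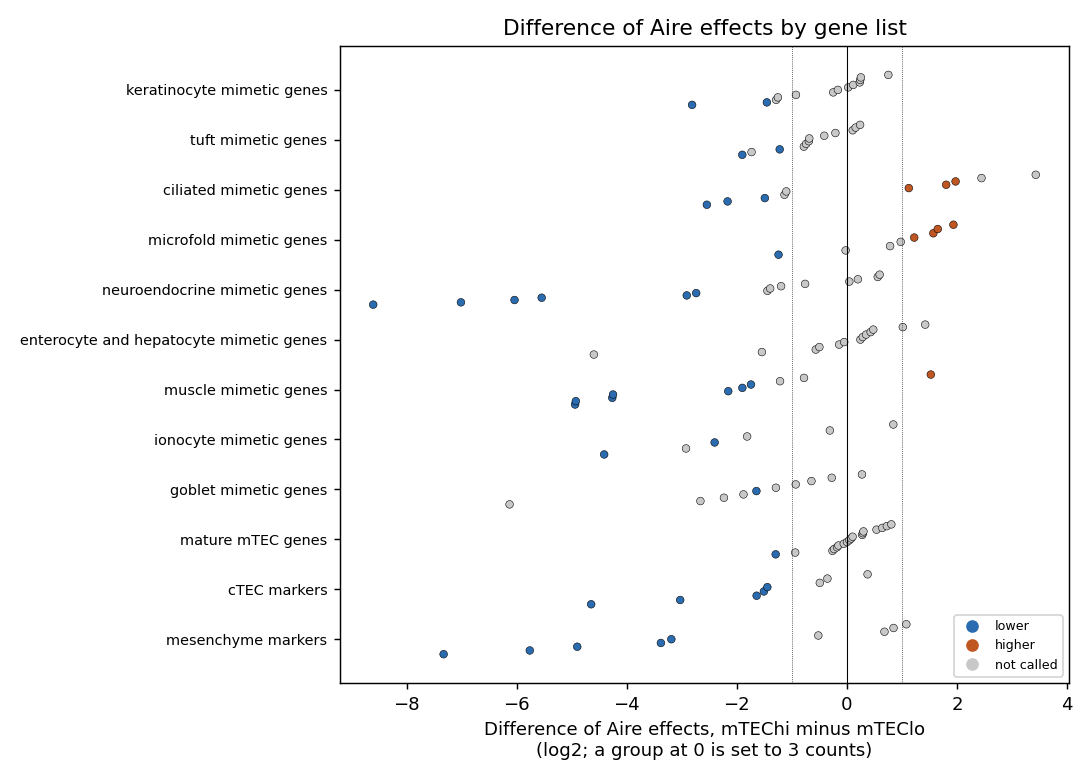
Difference of Aire effects (log2, mTEChi minus mTEClo) for the tested genes of 12 lists, with a point per gene, coloured by its call, and a group at 0 set to 3 counts. Dotted lines mark 2-fold. Neuroendocrine, muscle, mesenchyme, goblet, ionocyte, tuft and cortical epithelial (cTEC) genes lie mostly on the negative side, and microfold genes mostly on the positive side.

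Of 10 tested genes among the best known Aire-dependent autoantigens, 9 fell in mTEChi and 3 in mTEClo, and 3 had a lower difference, Chrna1 and Muc6 among them. The shares of all tested genes were 17.9%, 3.91% and 11%. Muc6, a mucin of the stomach, was at 59.3, 77.5 and 138 CPM in WT mTEChi and at 3.04, 2.43, 6.06 and 4.12 CPM in AireKO, while in mTEClo AireKO was at 12.4, 8.09, 8.22 and 5.59 CPM against 9.34 to 16 CPM in WT. The difference was -3.79 (SE 0.40, adjusted p = 8.2e-08). Genes of mature mTECs had 1 lower difference among 18, where 11% of all tested genes were lower. The gene was Cd83, a regulator of MHC class II at the cell surface, at 75.1, 71.2, 75.4 and 71.3 CPM in mTEChi AireKO against 41.2 to 62.5 CPM in WT, and at 11.3, 4.36, 7.05 and 4.62 CPM in mTEClo AireKO against 1.27 to 3.03 CPM in WT. AireKO was above WT in both fractions, and the difference was -1.29 (SE 0.30, adjusted p = 0.002). Among the 9 mTEClo genes, Krt15 and Pdpn had a lower difference. Pdpn, a membrane mucin, lay at 2-fold, with -1.04 over all libraries and with -0.97 and -0.98 without mTEChi WT replicate 4 or 7, and it was also lost without mTEChi AireKO replicate 3.

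Chemokines and cytokines of the thymus had 3 lower and 2 higher differences among 12, where 11% of all tested genes were lower and 2.62% higher. Cxcl12, a chemokine for thymocyte progenitors, was at 7.17, 13.7 and 15.1 CPM in WT mTEChi and at 2.6, 2.02, 3.37 and 4.54 CPM in AireKO, and it rose in mTEClo from a median of 56.4 CPM to 56.6, 70.9, 147 and 162 CPM. The difference was -3.03 (SE 0.41, adjusted p = 2.6e-06), and the 2 higher mTEClo values were those of the libraries without mitochondrial counts. Kitl, the ligand of the receptor Kit, showed the same split and did not pass with the other kind alone. Ccl22, a chemokine for CCR4-bearing cells, fell in mTEChi from a median of 124 CPM to 24.7, 63.5, 31 and 31.8 CPM. In mTEClo it was low, with AireKO libraries at 1.08, 1.24, 15.9 and 0.243 CPM, and without the highest of them, mTEClo AireKO replicate 3, the difference was 0.38. Cxcl10, induced by interferons, had a difference of 1.02 that was at most 1.00 without any of 12 single libraries, and it overlaps Art3.

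Ccl8, a chemokine of the monocyte-attracting group, was the clearest ligand with a lower difference. It was at 7.42, 9.26 and 9.91 CPM in WT mTEChi and 0, 0.404, 2.69 and 0.412 CPM in AireKO, and at 0.506, 1.36 and 2.33 CPM in WT mTEClo and 7.55, 4.36, 9.98 and 5.59 CPM in AireKO. The fractions exchanged their levels without overlap of the genotypes in either, with a difference of -5.57 (SE 0.57, adjusted p = 4.2e-08). Among 23 genes of cell division, only Cenpa had a lower difference, where 11% of all tested genes were lower. With the mTEClo AireKO libraries of each kind alone the count of cell division genes was 12 lower (with mitochondrial counts) or 1 lower and 6 higher (without). The summed level of the list was 472 to 859 CPM in mTEChi AireKO, 886 to 1267 CPM in WT mTEChi, 214 to 888 CPM in mTEClo AireKO and 411 to 653 CPM in WT mTEClo.

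Markers of other cell types moved with some of these results. Of 9 mesenchyme markers, 5 had a lower difference, namely Pdgfra, Col1a1, Col1a2, Col3a1 and Postn, while Dcn, Lum, Vim and Pdgfrb were not called. The share with a lower difference over all tested genes was 11%. Col1a1, a chain of collagen I, was at 50.7, 112 and 182 CPM in WT mTEChi and 1.3, 1.21, 0.673 and 0.412 CPM in AireKO, and at 1.27, 3.16 and 14 CPM in WT mTEClo against 6.47, 4.98, 12 and 1.7 CPM in AireKO. The genotypes were apart in mTEChi and overlapped in mTEClo, and the difference was -7.33 (SE 0.95, adjusted p = 1.7e-06). The summed level of the 9 markers ran from 427 to 588 CPM in WT mTEChi and from 437 to 558 CPM in AireKO mTEChi, and from 202 to 308 and from 279 to 398 CPM in WT and AireKO mTEClo, with overlap of the genotypes in mTEChi. Pdgfra, a receptor that marks fibroblasts, was at 0, 0.404, 0 and 0.412 CPM in mTEChi AireKO and at 2.69 to 13.2 CPM in WT. The part of mesenchymal cells in the collagen results was not tested.

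Of 8 markers of cortical thymic epithelial cells (cTECs), 5 had a lower difference, against 11% of all tested genes. By fraction, 3 of the list fell in mTEChi and 4 rose in mTEClo, against 17.9% and 4.39% of all tested genes. Enpep, the aminopeptidase bound by the antibody to Ly51 that removed cTECs in the sort, was at 35.8, 42.1 and 60.9 CPM in WT mTEChi and at 3.47, 1.21, 5.05 and 1.65 CPM in AireKO. In mTEClo AireKO was at 4.85, 4.98, 9.1 and 15.3 CPM against a WT range of 5.08 to 6.86 CPM, and the difference was -4.65 (SE 0.40, adjusted p = 2.1e-09). Psmb11, the thymoproteasome subunit particular to cTECs, was at 16.2, 14.9, 20.5 and 16.1 CPM in mTEClo AireKO and at 2, 3.18 and 14.3 CPM in WT. The summed level of the 8 markers in mTEClo was 666 to 832 CPM in AireKO and 490 to 597 CPM in WT, without overlap, and 642 to 780 against 603 to 697 CPM in mTEChi. The part of cTECs in these values was not tested.

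Thymocyte markers had 2 lower differences among 7 tested (Cd8a and Lck), with sums of 43.4 to 56.5 CPM in mTEChi AireKO and 85.2 to 117 CPM in WT, and of 19.3 to 35.3 and 33.7 to 51.8 CPM in mTEClo. The other 6 of the 13 listed were below the filter on low counts, and the call of Cd8a was lost without any of 5 single libraries, with -2.34 to -1.88. Myeloid markers had 2 among 9 (Adgre1 and Cd14), with sums of 412 to 465 CPM in mTEChi AireKO and 321 to 399 CPM in WT, and of 113 to 156 and 51.5 to 88.6 CPM in mTEClo. Adgre1 did not pass without mTEClo AireKO replicate 1 or 3 (-4.05 and -4.31), nor Cd14 without replicate 3 (-0.81). Endothelial markers had 1 among 6 (Eng, which overlaps Fpgs), with sums of 64.7 to 91.3 CPM in mTEChi AireKO and 104 to 117 CPM in WT, and of 59.7 to 105 and 52 to 84.2 CPM in mTEClo. For each of these lists, the share with a lower difference over all tested genes was 11%. The part of thymocytes, myeloid cells and endothelium in the results was not tested.

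By type of gene, 14.1% of the 15621 tested protein-coding genes were called, 1915 lower and 287 higher. Antisense genes had 38 lower and 54 higher among 784 (11.7%), and reads of an antisense gene and of its partner cannot be told apart in counts made without strand. Protein-coding genes with a lower difference had a median exonic length of 4345 bases against 4343 bases over all 15621, and a lower median level, with 11.3 CPM in WT mTEChi and 5.36 CPM in WT mTEClo against 27.2 and 27 CPM.

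The same contrast could be formed in other mice, neonates in which EED, a core subunit of the Polycomb repressive complex that places the H3K27me3 mark, was deleted in thymic epithelium by Foxn1-Cre. There 13 libraries of animals aged 1 to 6 days compared AireEEDdKO with EEDcKO, with 3 mTEChi libraries of each and with 3 AireEEDdKO and 4 EEDcKO mTEClo libraries, several of them labelled as pooled in sex. All of these mice lacked EED, and they differ from the adults in age as well. Every AireEEDdKO library came from animals aged 4 or 6 days. The EEDcKO libraries of both fractions also included animals aged 1 day and 2 to 3 days. Genotype and age can thus not be fully told apart in this contrast. The main neonatal fit also held the neonatal libraries outside these 4 groups, from mice with EED. Those libraries entered the filter, the scaling and the estimate of spread. The difference was called for 766 of 20187 tested genes (3.79%), 518 lower (2.57%) and 248 higher (1.23%). This count depended on the fit, with 115 genes (86 lower, 29 higher) when only these 4 groups were fitted and 362 to 1317 genes with single libraries left out. In mTEChi alone 2700 genes (13.4%) were called, 1690 (8.37%) lower and 1010 (5%) higher, and in mTEClo alone 1071 (5.31%), 374 (1.85%) lower and 697 (3.45%) higher. Of the 2128 adult genes with a lower difference, 2066 were tested in neonates, and 233 of them (11.3%) were lower and 23 (1.11%) higher there, against 490 (2.64%) and 240 (1.29%) of the 18537 genes tested at both ages. Their median neonatal difference was -0.71, and 73.8% were negative against 52.7% of all. The count of 233 fell to between 126 and 141 without mTEChi AireEEDdKO replicate 1 or 2, and to 45 when only these 4 groups were fitted.

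Of the 480 adult genes with a higher difference that were tested in neonates, 21 (4.38%) were higher and 3 were lower, and their median was 0.09. The named genes differed in this. Col1a1 had a neonatal difference of -5.84 (adjusted p = 0.00032), Col2a1 of -4.49 (adjusted p = 0.00012) and Col6a3 of -4.04 (adjusted p = 0.0017). Sparc had -1.28 (adjusted p = 0.033). Chil3 passed as well (adjusted p = 0.023), with 0 counts in the 3 mTEChi AireEEDdKO libraries and at most 3.91 CPM in any of the 13, so that no size is given. Tnn, Lrp1b and Cr2 did not pass, with neonatal differences of -0.45, 0.74 and 0.46. Foxj1 had a neonatal difference of -1.52 (adjusted p = 0.041), opposite in sign to the adult one, and Slc43a1 had -2.42 (adjusted p = 0.0023), of the same sign.

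**Figure D5:**
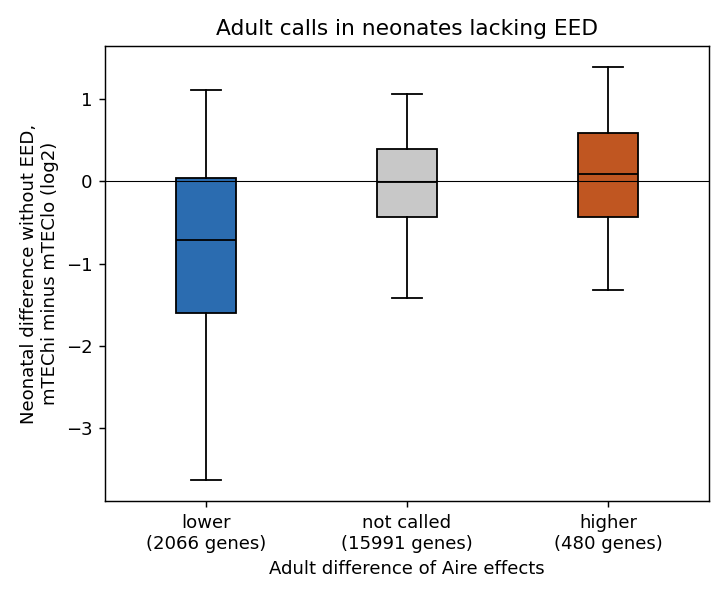
Difference of Aire effects in neonates lacking EED (log2, mTEChi minus mTEClo) for genes grouped by their adult call, with boxes from the 25th to the 75th percentile, the median as a line and whiskers from the 5th to the 95th percentile. The 2066 genes with a lower adult difference have a median of -0.71 and the 480 genes with a higher adult difference a median of 0.09.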

How the data were processed

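RNA was measured by sequencing of sorted adult mTEChi and mTEClo. The deposited table holds raw counts per gene, which the authors made with fastp 0.20.0, STAR 2.7.3a on mm10, SAMtools 1.9, Picard 2.21.1 for duplicates and HTSeq 0.11.2 without strand, versions as in the submitters' processing notes. The Ensembl release was not given in the sources used here.

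From these counts, the 37 mitochondrial genes were removed, genes were filtered with filterByExpr by group, and libraries were scaled by TMM. The difference of effects was tested over 23 adult libraries in 4 groups with edgeR 4.0.16 (quasi-likelihood, prior count 0.125, R 4.3.3) and Benjamini-Hochberg adjustment over all tested genes. A call needed an adjusted p under 0.05 and a difference of at least 2-fold. CPM use TMM-scaled totals. The biological coefficient of variation was 14.2%. A group at 0 was bounded at 3 counts over the group, which covers counting error only. Scripts were tested on simulated counts. DESeq2 1.42.0 and other settings were alternatives, and 2 of them, the deeper libraries alone and a block for AireKO alone, were chosen after seeing the data.

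Members and gene lists were chosen with earlier results of these data known. Named genes were Aire, the 4 or 6 genes of largest difference in each class of calls that also passed in both fits by kind of library and in level, called genes of the lists, called members of the families with large shares, and the 3 longest runs of neighbouring called genes. Genes outside this rule are marked as chosen after their values were seen, apart from family counts, and a few genes that the rule names are not reported here. Since the rule asked for both fits by kind, passing them is no further support for the class genes.

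Replicate numbers were checked for pairing. Same-numbered mTEChi and mTEClo libraries deviated together in AireKO (correlations of 0.15 to 0.23) and not in WT (-0.11 to 0.07). AireKO replicates 2 and 4 correlated best with their own number, and replicates 1 and 3 did not. In AireKO equal numbers also share age, so that pairing and age cannot be told apart. The main fit held no block, and fits with a block were alternatives.

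RefSeq promoter windows were matched by symbol. They covered 79.5% of the tested protein-coding genes, under the 80% needed, so that promoter features over all called genes were not compared.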

Additional observations from a re-analysis of the deposited data

Results flagged for a closer look

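The effect of losing Aire differed between the fractions by the test of the difference itself for 2128 genes in the lower and 506 genes in the higher direction in adults, and for 518 and 248 genes in neonates lacking EED. Of the genes named for the size of their difference within a class of calls, 6 were called in opposite directions, Chil3 (-6.50), Tnn (-6.33), Mylk4 (-6.00), Tmem132b (-5.37), Lrp1b (2.99) and Cr2 (2.15), as log2 differences.

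Single libraries stood apart from the rest of their group in 38 of 536 groups of values examined, where chance gives about 1 in 20. The most, 7, were in mTEClo WT replicate 1, and 5 were in mTEChi AireKO replicate 3. All values are CPM, with the median of the group in brackets. In mTEChi AireKO replicate 3 this was Rsad2 at 6.06 (1.23), Cck at 0.337 (0), Myl1 at 0.673 (0), Ccl8 at 2.69 (0.408) and Klk1b22 at 0.673 (0). mTEChi WT replicate 6 held Rimbp2 at 51.3 (37.7) and Lck at 25.7 (17.4). In mTEClo WT replicate 5 this was Rimbp2 at 75.9 (42.8), Ptchd4 at 8.34 (4.34), Chat at 111 (74.8) and Camk1d at 49.6 (32.2). mTEClo WT replicate 1 held Serpinf1 at 10.3 (3.42), Iqcn at 46.8 (20.5), Cck at 5.14 (1.1), Psmb11 at 14.3 (3.18), Dll4 at 25.1 (11.6), Krt19 at 182 (103) and Krt33b at 0 (0.713). In mTEClo WT replicate 6 this was Il1rl1 at 5.16 (1.74), Col1a2 at 7.59 (1.55) and Apol7c at 0.304 (0). In mTEClo AireKO replicate 3 this was Vwa3a at 4.7 (1.43), Ccl22 at 15.9 (1.16) and Apol7c at 1.76 (0). mTEClo AireKO replicate 1 held Elk3 at 35.1 (40.3). In mTEChi WT replicate 2 this was Ptchd4 at 12 (18.1). mTEChi AireKO replicate 1 held Casp14 at 3.47 (0.741) and Postn at 2.17 (1.67). In mTEClo AireKO replicate 4 this was Dnah9 at 45 (64.2) and Lck at 10.7 (7.51). mTEChi WT replicate 1 held Ccl20 at 101 (63.9). In mTEClo AireKO replicate 2 this was Cck at 0 (2.69). mTEChi WT replicate 7 held Pdgfra at 13.2 (4.96), Col6a3 at 137 (94.9) and Lipa at 49.5 (34.7). In mTEClo WT replicate 8 this was Adgre1 at 3.28 (0.446) and Ifit3 at 92.5 (75). mTEClo WT replicate 2 held Cxcl16 at 123 (106).

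Without mTEClo AireKO replicate 3, which held the high Ccl22 value, the difference of Ccl22 was 0.38.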

How the results depend on the processing

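Of the 2634 genes called, none was called in the opposite direction under any alternative, DESeq2 called 2522 of them alike, and the kinds of mTEClo AireKO library alone called 2237 (without mitochondrial counts) and 1578 (with) alike. The count was 1719 genes, 1366 of them lower, with a mean count above 3 asked in each group. It was 4830, of which 2046 were higher, with no minimum change. The higher genes numbered 307 with library size alone, where the median of all genes moved by -0.17, and 760 with a term for the library kind. Leaving out single libraries gave 1906 to 2248 lower and 402 to 561 higher genes. The cause of these changes was not tested.

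With the replicate number as a block the counts were 1982 lower and 489 higher (2471), nested within genotype 2467, for AireKO alone 2682, and in neonates 735. The WT numbers do not pair the libraries.

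In neonates the counts were 846 lower with no filter, 145 higher with library size alone, 1166 in all and 562 higher with no minimum change, and 115 in all, 86 lower and 29 higher, with only the 4 groups in the fit, which leaves fewer samples. Leaving out single libraries gave 362 to 1317 in all, 240 to 903 lower and 122 to 426 higher. The adult lower genes that were also lower numbered 45 with only these groups.

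The difference of Aire became -0.031 with DESeq2, -1.21 with only mTEClo AireKO libraries with mitochondrial counts, -0.082 with a prior count of 2, and -0.23 and -0.27 without mTEClo AireKO replicate 3 and 4 (range of -0.27 to 1.75 over single libraries left out). Ivl became 0.034 and Apol7c 0.0026 with that kind alone, Apol7c 0.017 and Ccl22 0.38 without replicate 3 (ranges of -4.62 to 0.017 and of -3.09 to 0.38). Of the values for named genes, 5701 kept direction and call, 186 lost the call and 9 reversed. Low counts limit most the genes that were near 0 in mTEChi AireKO.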
